A study of Mus musculus with 63 samples.

Results

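The 10 genes described here mark the pyramidal cell fields of the hippocampus: Wfs1, Fibcd1, Mpped1 and Man1a for CA1, Bok and Cpne4 for CA3, and Rgs14, Amigo2, Pcp4 and Necab2 for CA2. They were taken by symbol from the 55401 genes of a deposited count table, all 10 were found, and all 10 passed a filter on low counts that kept 19974 genes. Dorsal hippocampus of adolescent mice gave 63 RNA libraries. The mice were of the inbred strain DBA/2J (32 libraries) or C57BL/6J (31 libraries), male or female, and received an acute injection of ethanol at 1.5 g/kg or of saline. They were either fear conditioned (FC) or left without it as controls (noFC). These factors make 16 groups of strain, sex, drug and conditioning, each with 4 libraries apart from the C57BL/6J males given saline and conditioned, which have 3. By strain and drug there were 16 libraries of DBA/2J with ethanol, 16 of DBA/2J with saline, 16 of C57BL/6J with ethanol and 15 of C57BL/6J with saline. By strain and conditioning there were 16 of DBA/2J with FC, 16 of DBA/2J with noFC, 15 of C57BL/6J with FC and 16 of C57BL/6J with noFC. The labels give neither the time between injection, conditioning and dissection nor whether each library came from a separate animal, so p-values measure the spread between these libraries.

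The hippocampus sends information from the dentate gyrus to CA3 and from there to CA1, the main output field, with the small CA2 field lying between CA3 and CA1. CA1 and CA3 pyramidal cells are needed for learning a place in which a shock was given, while CA2 is best known for social memory and for synapses in which long-term potentiation is hard to induce. Each field has its own set of expressed genes, and these serve as markers in dissected tissue, although several of them are also expressed in neurons outside the hippocampus. In RNA from whole tissue, fewer cells of a type and less RNA per cell cannot be told apart.

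The promoters of Bok, Amigo2 and Pcp4 are shown because these genes had the largest strain differences of the 10. The sequences are RefSeq windows on the build GRCm38.p6, which is the C57BL/6J reference, and run from 250 bases before to 50 bases after the gene's start in RefSeq, 5′ to 3′ on the gene's strand. Capitals mark the GC box, GGGCGG or its reverse complement CCGCCC. The windows are chr1:93685325-93685624 on the plus strand for Bok, chr15:97247238-97247537 on the minus strand for Amigo2 and chr16:96467356-96467655 on the plus strand for Pcp4. For Bok the start in RefSeq lies upstream of the GENCODE start given with its values, so the whole window is upstream of that start.
Bok: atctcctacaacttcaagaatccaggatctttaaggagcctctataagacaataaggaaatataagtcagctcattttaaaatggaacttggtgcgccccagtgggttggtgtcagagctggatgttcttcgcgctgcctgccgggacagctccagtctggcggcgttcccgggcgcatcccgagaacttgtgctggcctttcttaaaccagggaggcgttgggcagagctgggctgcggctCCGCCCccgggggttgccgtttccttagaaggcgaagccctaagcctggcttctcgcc
Amigo2: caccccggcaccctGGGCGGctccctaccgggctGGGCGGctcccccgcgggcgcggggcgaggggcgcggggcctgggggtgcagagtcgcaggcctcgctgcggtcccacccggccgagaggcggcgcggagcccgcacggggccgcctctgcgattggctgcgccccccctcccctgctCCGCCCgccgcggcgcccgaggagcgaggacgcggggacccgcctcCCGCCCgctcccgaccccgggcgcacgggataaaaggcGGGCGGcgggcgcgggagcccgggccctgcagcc
Pcp4: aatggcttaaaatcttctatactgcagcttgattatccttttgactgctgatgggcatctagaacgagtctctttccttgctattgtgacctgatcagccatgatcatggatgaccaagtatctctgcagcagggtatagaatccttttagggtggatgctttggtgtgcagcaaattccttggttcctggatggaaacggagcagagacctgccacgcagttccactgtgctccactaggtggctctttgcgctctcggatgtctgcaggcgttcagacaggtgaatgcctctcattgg

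Amigo2's window held 5 GC boxes and 83.3% G and C, that of Bok 1 GC box and 56.3% G and C, and that of Pcp4 no GC box and 48.7% G and C. Among 32851 RefSeq promoter windows of the same length, 35.7% held at least 1 GC box, and the median G and C content was 52.7%. RefSeq windows were matched to 9 of the 10 genes, and Rgs14 was not among them. The DBA/2J sequence of these windows was not analysed here.

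Total gene counts ran from 21027659 to 61631742 per library, with a median of 26379948. The lowest raw count of any of the 10 genes in any library was 560, for Amigo2. Positions of genes are from GENCODE M21 on GRCm38. Levels are in CPM, counts scaled for library depth with TMM factors from 0.959 to 1.05, and the threshold for a call was an adjusted p of 0.05. Each title also held a number and 1 of the letters A, B, C and D, and what these stand for is not given in the sources used here. The lower and the higher numbers served as sets within which a test was repeated. Each number belonged to 1 strain and 1 sex. If libraries with the same number are alike, the strain p-values may be too small. Letters A and C stood on every FC library and B and D on every noFC library, so an effect of the letter and one of conditioning cannot be told apart. Among the lower numbers A and B stood on saline and C and D on ethanol, and among the higher numbers the reverse. Within either set, an effect of the letter and one of ethanol cannot be told apart.

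Every gene of the marker lists had counts, so the defining genes of the labelled tissue were present. The summed level of 6 other CA3 genes (Grik4, Iyd, Nectin3, Socs2, Coch, Chgb) ran from 504 to 884 CPM in DBA/2J and from 596 to 893 CPM in C57BL/6J. For 6 other CA2 genes (Map3k15, Ntf3, Cacng5, Sostdc1, Stard5, Ccdc3) it ran from 42.7 to 202 CPM in DBA/2J and from 50.8 to 148 CPM in C57BL/6J. Genes of tissue outside the pyramidal fields were present too, and the summed level of 8 choroid plexus genes was the most variable, from 34.3 to 10991 CPM in DBA/2J and from 42.5 to 12426 CPM in C57BL/6J. In each strain, the library with the highest sum of the 6 other CA2 genes also had the highest choroid plexus sum. What part choroid plexus RNA had in the CA2 sum was not tested.

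Per kilobase of exon, the order of the 10 levels was Pcp4, Wfs1, Mpped1, Bok, Fibcd1, Necab2, Rgs14, Cpne4, Amigo2 and Man1a. Over the 63 libraries, Pcp4, a small calmodulin-binding protein that speeds calcium exchange, averaged 94.2 ± 15.3 CPM per kilobase (SD, n = 63), and Wfs1, the endoplasmic reticulum protein wolframin, 51.9 ± 8.1 CPM per kilobase (SD, n = 63). At the low end stood Man1a, a Golgi mannosidase that trims N-glycans, with 9.70 ± 1.13 CPM per kilobase (SD, n = 63), next to Amigo2, a leucine-rich repeat adhesion protein, with 10.8 ± 2.0 CPM per kilobase (SD, n = 63). Of the 9 steps in this order, the gap was larger than the sum of both SDs only from Pcp4 to Wfs1 and from Cpne4 to Amigo2. Compared within libraries, Bok was above Fibcd1 in 60 of 63, Rgs14 above Cpne4 in 58 and Wfs1 above Mpped1 in 57. Mpped1 was above Bok in 36, Fibcd1 above Necab2 in 40, Necab2 above Rgs14 in 25 and Amigo2 above Man1a in 45. Fibcd1, Necab2 and Rgs14 lay at 28.2, 27.7 and 27.6 CPM per kilobase and did not differ beyond their spread.

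The strain comparison asked which of these genes set the DBA/2J hippocampus apart from that of C57BL/6J when all drug and conditioning groups weigh equally. Of the 10 genes, 7 passed the test: Man1a, Cpne4, Rgs14 and Amigo2 were higher in DBA/2J, and Wfs1, Bok and Pcp4 were lower. Among all 19974 genes tested the same test called 9986, which is 50.0%, and the count of 7 is read against that share. The median size of the log2 difference was 0.17 for the 10 genes and 0.11 for all genes. Each field had genes on both sides: 1 higher and 1 lower of 4 for CA1, 1 higher and 1 lower of 2 for CA3, and 2 higher and 1 lower of 4 for CA2.

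**Figure D1:**
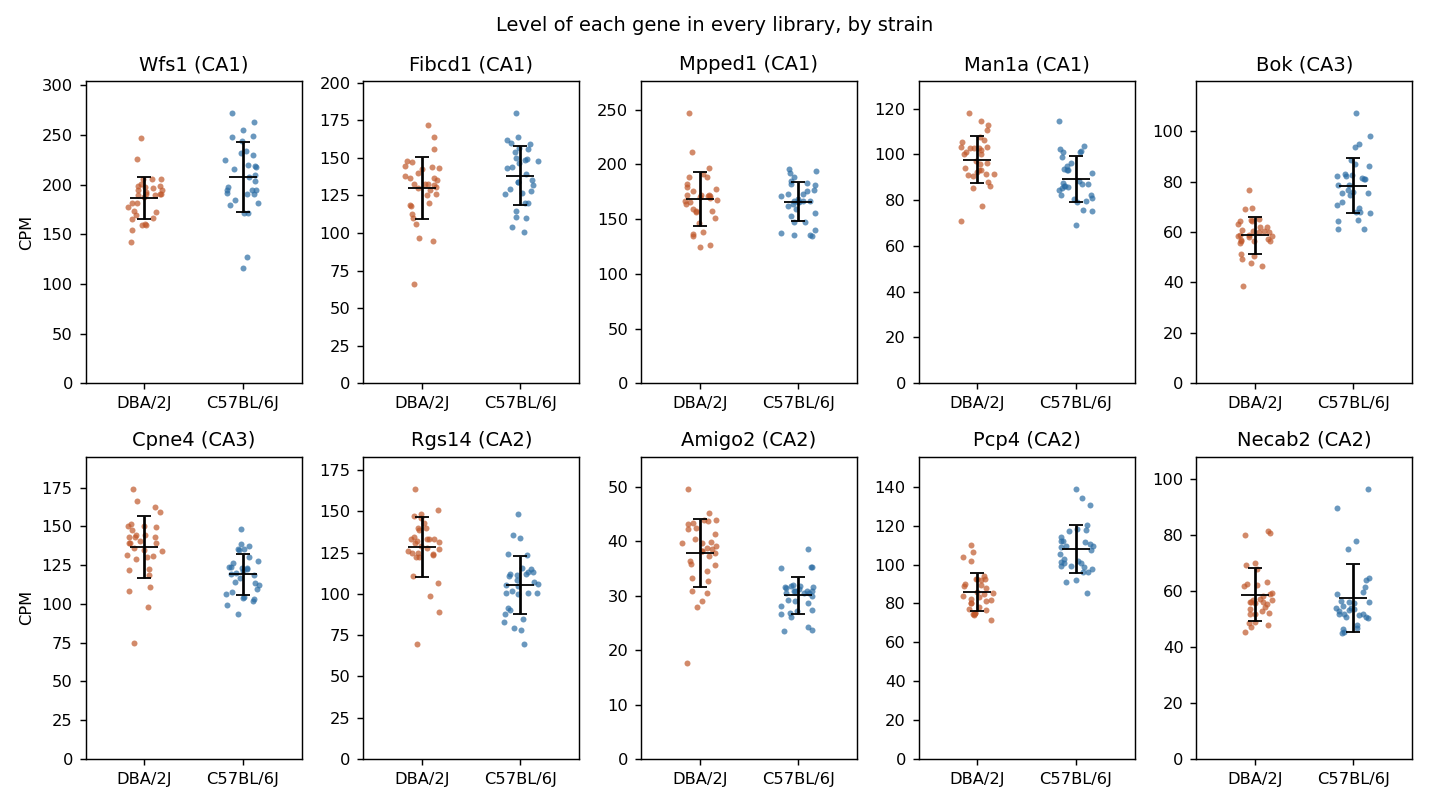
Level of each gene in CPM (vertical axis, from 0) in every library, with 32 DBA/2J libraries to the left of 31 C57BL/6J libraries in each panel; points are libraries, and bars show the mean ± SD. Bok and Pcp4 sit lower in DBA/2J, Rgs14, Amigo2 and Cpne4 sit higher, and Mpped1 and Necab2 lie at like levels in both strains.

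In CA3, Bok (ENSMUSG00000026278, chromosome 1, 93685660 to 93695764, plus strand), a member of the Bcl-2 family that can act in cell death and in calcium handling, had the largest strain difference of the 10. Its lowest, median and highest levels were 38.6, 58.9 and 76.5 CPM in DBA/2J, against 61.1, 78.6 and 107 CPM in C57BL/6J. All 32 DBA/2J libraries lay below the C57BL/6J median, 22 of them below the lowest C57BL/6J library, and the ranges still overlapped. The mean was 58.7 ± 7.3 CPM over 32 DBA/2J libraries and 78.4 ± 10.9 CPM over 31 C57BL/6J libraries (SD), which puts DBA/2J at 74.8% of C57BL/6J. Bok thus fell by 0.42 on the log2 scale (SE 0.05, edgeR adjusted p = 8.22e-11). The mean was lower in DBA/2J in all 8 combinations of sex, drug and conditioning. Both genes next to Bok on chromosome 1 missed the threshold, with log2 differences of 0.04 for Stk25 and 0.03 for Thap4 (edgeR adjusted p = 0.084 and 0.408).

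Cpne4 (ENSMUSG00000032564, chromosome 9, 104547286 to 105034544, plus strand), a copine that binds membranes when calcium is present, was the CA3 gene that was higher in DBA/2J. Lowest, median and highest levels were 74.6, 139 and 174 CPM in DBA/2J and 93.6, 119.8 and 148 CPM in C57BL/6J. The ranges overlapped widely, with 27 of 32 DBA/2J libraries above the C57BL/6J median and 8 above the highest C57BL/6J library. The log2 difference was 0.20 (SE 0.05, edgeR adjusted p = 8.38e-04), and the mean was higher in DBA/2J in 8 of 8 combinations of the other factors. Both neighbours on chromosome 9 were called, with a log2 difference of 0.79 for Acpp (edgeR adjusted p = 0.00273) and -0.20 for Mrpl3 (edgeR adjusted p = 8.92e-15).

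Among the CA2 genes, Amigo2 (ENSMUSG00000048218, chromosome 15, 97244125 to 97247287, minus strand) had the largest positive difference. It ran from 17.7 to 49.6 CPM in DBA/2J with a median of 38.7 CPM, and from 23.5 to 38.6 CPM in C57BL/6J with a median of 30.6 CPM. The lowest library of all was a DBA/2J one, yet 16 of 32 DBA/2J libraries lay above the highest C57BL/6J library. Means were 37.8 ± 6.2 CPM over 32 DBA/2J libraries and 30.0 ± 3.4 CPM over 31 C57BL/6J libraries (SD), a log2 difference of 0.33 (SE 0.06, edgeR adjusted p = 2.16e-06). Pced1b, which overlaps the start of Amigo2 on the opposite strand, was also higher in DBA/2J, at 6.17 ± 0.81 CPM (SD, n = 32) against 5.35 ± 0.58 CPM (SD, n = 31) in C57BL/6J. The library kit marks strand, but the strand setting of the counting is not given in the sources used here, so reads of the overlapping stretch are uncertain.

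Rgs14 (ENSMUSG00000052087, chromosome 13, 55369732 to 55384687, plus strand), a regulator of G protein signalling that limits synaptic potentiation in CA2 cells, was higher in DBA/2J. The lowest, median and highest levels were 69.6, 131 and 164 CPM in DBA/2J and 70.0, 106 and 149 CPM in C57BL/6J. The ranges covered nearly the same span, and 29 of 32 DBA/2J libraries were above the C57BL/6J median. A log2 difference of 0.29 (SE 0.06, edgeR adjusted p = 2.29e-05) separated the strains, with DBA/2J higher in 8 of 8 combinations of sex, drug and conditioning. Both neighbours on chromosome 13 were higher in DBA/2J as well, Lman2 by a log2 difference of 0.13 and F12 by 0.51.

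Pcp4 (ENSMUSG00000090223, chromosome 16, 96467606 to 96525793, plus strand) moved the other way from Amigo2 and Rgs14. Levels were 71.4 CPM at the lowest, 84.4 CPM at the median and 110.0 CPM at the highest in DBA/2J, against 85.6, 108 and 139 CPM in C57BL/6J. All but 1 of the 32 DBA/2J libraries lay below the C57BL/6J median, and 18 lay below the lowest C57BL/6J library. With means of 85.9 ± 9.9 CPM over 32 DBA/2J libraries and 108 ± 12.4 CPM over 31 C57BL/6J libraries (SD), Pcp4 fell by 0.32 on the log2 scale (SE 0.04, edgeR adjusted p = 4.03e-10). Nearly all of the Pcp4 gene lies within an annotated read-through of Igsf5 on the same strand of chromosome 16 (96361794 to 96525580), so its counts are uncertain. The entry that holds this read-through, named Igsf5, had a median of 56.9 CPM in DBA/2J and 65.7 CPM in C57BL/6J. Its log2 difference was -0.17 (edgeR adjusted p = 1.42e-04), which is not a value of Igsf5 apart from Pcp4.

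Necab2 (ENSMUSG00000031837, chromosome 8, 119446719 to 119472640, plus strand), a calcium-binding protein that contacts adenosine and glutamate receptors, was the CA2 gene that did not pass. It ran from 45.5 to 81.4 CPM in DBA/2J with a median of 56.3 CPM, and from 45.1 to 96.4 CPM in C57BL/6J with a median of 54.0 CPM. The range in C57BL/6J enclosed that in DBA/2J, and the log2 difference was 0.04 with a 95% interval from -0.07 to 0.15 (edgeR adjusted p = 0.592).

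For CA1 the differences were smaller. Wfs1 (ENSMUSG00000039474, chromosome 5, 36966104 to 36989205, minus strand) had a lowest, median and highest level of 143, 189.8 and 247 CPM in DBA/2J and 116, 208 and 272 CPM in C57BL/6J. The range in C57BL/6J enclosed the range in DBA/2J, while 30 of 32 DBA/2J libraries lay below the C57BL/6J median. Wfs1 fell by 0.15 on the log2 scale (SE 0.05, edgeR adjusted p = 0.0119), and its mean was lower in DBA/2J in 6 of 8 combinations. With the lower title numbers alone the log2 difference was -0.09 and no longer passed (edgeR adjusted p = 0.373), and with the higher numbers alone it was -0.20.

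Man1a (ENSMUSG00000003746, chromosome 10, 53904785 to 54076609, minus strand) stood at 70.8, 98.6 and 118 CPM (lowest, median and highest) in DBA/2J and at 69.3, 87.1 and 115 CPM in C57BL/6J. The ranges were nearly the same, with 28 of 32 DBA/2J libraries above the C57BL/6J median. Its log2 difference was 0.13 (SE 0.04, edgeR adjusted p = 0.00545), higher in DBA/2J in 7 of 8 combinations. With the higher title numbers alone it was 0.11 and no longer passed (edgeR adjusted p = 0.0638), and with the lower numbers alone 0.15.

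Fibcd1 (ENSMUSG00000026841, chromosome 2, 31813290 to 31846005, minus strand), a membrane receptor that binds acetylated sugars, had a lowest, median and highest level of 65.8, 133 and 172 CPM in DBA/2J and 100.4, 139 and 179.6 CPM in C57BL/6J. Its log2 difference of -0.09 (95% interval from -0.19 to 0.02, edgeR adjusted p = 0.182) did not pass. Mpped1 (ENSMUSG00000041708, chromosome 15, 83779467 to 83858494, plus strand), a metallophosphoesterase domain protein, ran from 125 to 247 CPM in DBA/2J with a median of 169.6 CPM, and from 135 to 196 CPM in C57BL/6J with a median of 167 CPM. The strains overlapped for both genes apart from a few libraries at the ends. The log2 difference of Mpped1 was 0.02 (95% interval from -0.07 to 0.11, edgeR adjusted p = 0.754).

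For the genes with larger strain differences, values within each set of title numbers lay close to the pooled ones. With the lower and with the higher numbers, the log2 differences were -0.39 and -0.44 for Bok and -0.36 and -0.29 for Pcp4. They were 0.33 and 0.32 for Amigo2, 0.30 and 0.27 for Rgs14, and 0.19 and 0.20 for Cpne4. Leaving out any 1 of the 63 libraries kept the same 7 genes past the threshold. The processing notes name GRCm38, the C57BL/6J reference, and what DBA/2J sequence variants did to the counts was not tested.

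Other genes of the same fields, taken from lists of markers, were also tested between the strains. Their counts are read against the 50.0% of all genes that the same test called. Of 6 other CA1 genes, none was higher in DBA/2J and 2 were lower, Spink8 with a log2 difference of -0.26 and Gpr161 with -0.19. Of 6 other CA3 genes, Nectin3, an adhesion protein, was higher (0.12) and Iyd, an iodotyrosine deiodinase, was lower (-0.32). None of 6 other CA2 genes passed. Their log2 differences ran from -0.05 for Ccdc3 (SE 0.06) to 0.75 for Sostdc1 (SE 0.35, edgeR adjusted p = 0.0666). The medians over these lists were 0.02 for CA1, -0.00311 for CA3 and 0.06 for CA2, against 0.00515 over all genes tested. Of 8 dentate gyrus genes, 2 were higher and 5 lower, with C1ql2, a synaptic organiser of mossy fibres, at -1.46.

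Some markers of other cells also differed by strain, in a test that called 50.0% of all genes. All 8 oligodendrocyte genes were lower in DBA/2J, and their summed level ran from 5128 to 14481 CPM in DBA/2J and from 8428 to 18143 CPM in C57BL/6J, with no marker at 0. Of 7 pan-excitatory genes, 1 was higher and 1 lower, and their sum ran from 6951 to 9708 CPM in DBA/2J and from 6955 to 10076 CPM in C57BL/6J. Of 7 striatal genes, which mark a tissue rich in Pcp4 and Necab2, 2 were higher and 1 lower, with sums from 86.6 to 162 CPM in DBA/2J and from 85.4 to 192 CPM in C57BL/6J. With the mean level of the striatal list as a covariate, the log2 differences of Pcp4 and Necab2 were -0.33 and 0.04. With the pan-excitatory list as a covariate, the log2 difference of Cpne4 was 0.12, that of Rgs14 0.21 and that of Fibcd1 -0.16, and Fibcd1 then passed (edgeR adjusted p = 9.64e-04). The part of oligodendrocyte RNA in these differences was not tested.

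The deposited estimated counts per transcript allowed the share of each gene's counts on its transcripts to be compared between strains. Over all 9564 genes tested, usage differed in 2452, or 25.6%. Of the 10 genes, 5 had at least 2 transcripts above the minimum share (Wfs1, Mpped1, Cpne4, Amigo2 and Necab2), and Cpne4 and Amigo2 passed.

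Amigo2-202 took 51.4 ± 8.0% of the gene's estimated counts in DBA/2J (SD, n = 32) and 43.3 ± 7.0% in C57BL/6J (SD, n = 31). Its lowest, median and highest shares were 29.6%, 52.0% and 70.0% in DBA/2J and 26.7%, 43.4% and 55.1% in C57BL/6J. The ranges overlapped, and 28 of 32 DBA/2J libraries lay above the C57BL/6J median. The rest of the counts lay on Amigo2-201, which starts further upstream, at position 97247287 on the minus strand of chromosome 15, against 97247122 for Amigo2-202. Usage differed with a limma diffSplice adjusted p = 4.97e-04. With the lower title numbers alone the limma diffSplice adjusted p was 0.0518, which missed the threshold, and with the higher alone it was 0.0236.

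Cpne4-201 took 82.6 ± 6.0% of its gene's estimated counts in DBA/2J (SD, n = 32) and 75.5 ± 6.2% in C57BL/6J (SD, n = 31). Its lowest, median and highest shares were 71.8%, 81.3% and 94.9% in DBA/2J and 64.7%, 73.8% and 89.6% in C57BL/6J, and 31 of 32 DBA/2J libraries were above the C57BL/6J median. Cpne4-202 held 12.3 ± 6.7% in DBA/2J (SD, n = 32) and 19.1 ± 6.8% in C57BL/6J (SD, n = 31). Its lowest, median and highest shares were 0%, 14.2% and 22.6% in DBA/2J and 4.16%, 20.2% and 30.3% in C57BL/6J. The estimate of 0% was reached only in DBA/2J libraries, and how stable these estimates are was not tested. The pair start at 104569483 and 104569787 on the plus strand of chromosome 9 and end at the same base, and usage differed with a limma diffSplice adjusted p = 7.19e-04. For Wfs1, Mpped1 and Necab2 the same test gave limma diffSplice adjusted p = 0.795, 0.381 and 0.705.

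**Figure D2:**
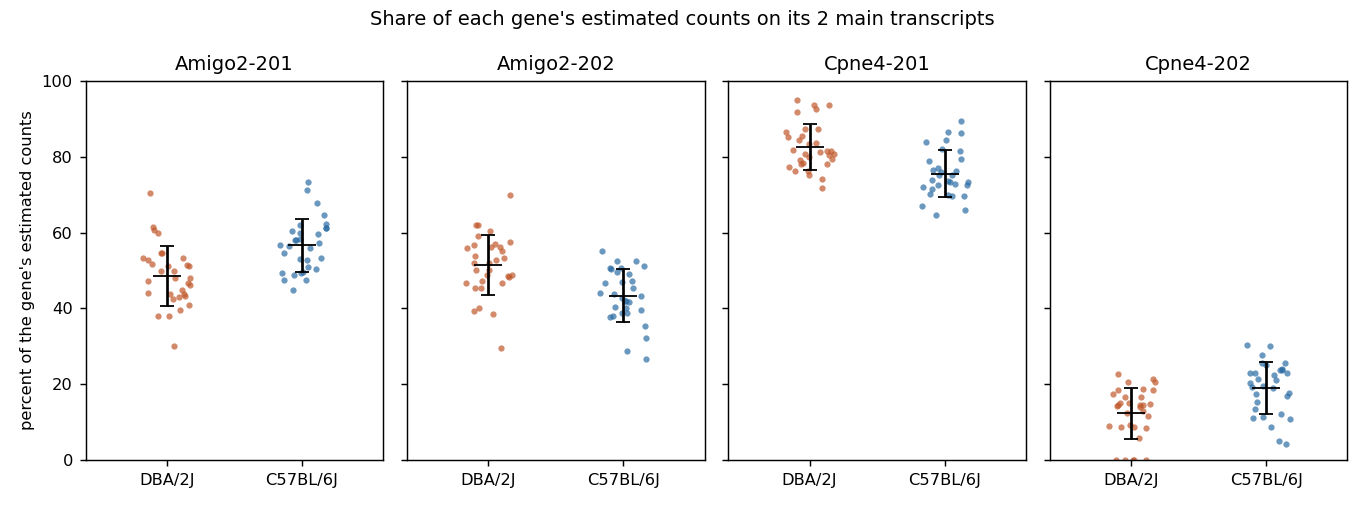
Percent of each gene's estimated counts on the main transcripts of Amigo2 and Cpne4 (vertical axis) in every library, with DBA/2J to the left of C57BL/6J; points are libraries and bars the mean ± SD. Amigo2-202 and Cpne4-201 hold a larger share in DBA/2J, and Amigo2-201 and Cpne4-202 a smaller one.

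The ethanol comparison asked what an acute dose did to these genes within a strain and over both. None of the 10 genes passed in any ethanol contrast, and none had an unadjusted p under 0.05. Over all genes edgeR called 109 over both strains (0.546%, with 1717 at an unadjusted p under 0.05), 59 in DBA/2J (0.295%, with 1669) and 18 in C57BL/6J (0.0901%, with 842). The difference of the ethanol effect between strains was called for 2 genes (0.0100%, with 720), none of the 10 among them.

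In DBA/2J, Amigo2 had the largest ethanol difference of the 10 with all libraries in the fit. It ran from 17.7 to 43.2 CPM with ethanol, with a median of 38.4 CPM, and from 28.0 to 49.6 CPM with saline, with a median of 39.2 CPM. The groups overlapped over most of their ranges, and the log2 difference was -0.11 (95% interval from -0.27 to 0.04, edgeR adjusted p = 0.769). Without 1 library of a male given ethanol and FC it was -0.06, smaller in size than that of Pcp4 with all libraries. Pcp4 stood at 71.4, 82.2 and 102 CPM (lowest, median and highest) with ethanol and at 75.0, 85.6 and 110.0 CPM with saline, a log2 difference of -0.09 (95% interval from -0.20 to 0.02).

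In C57BL/6J, Bok had the ethanol difference of the largest size, -0.09 (95% interval from -0.22 to 0.04, edgeR adjusted p = 1.0), and -0.06 without 1 library of a male given saline and FC. It ran from 61.1 to 94.8 CPM with ethanol, with a median of 75.8 CPM, and from 64.5 to 107 CPM with saline, with a median of 78.8 CPM. Necab2 was next, with a log2 difference of 0.09 and medians of 54.3 CPM with ethanol and 53.7 CPM with saline, and its difference was 0.03 without 1 library of a male given ethanol and FC. The 95% intervals of all 10 genes in this strain lay between -0.23 and 0.25, and in DBA/2J between -0.27 and 0.20. A change in either strain beyond those bounds lies outside the interval of every one of the 10.

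The conditioning comparison asked what FC did to these genes against noFC. Again none of the 10 passed, and none had an unadjusted p under 0.05. Over both strains edgeR called 4 genes (0.0200%, with 697 at an unadjusted p under 0.05). It called 0 in DBA/2J (0%, with 670 at an unadjusted p under 0.05, and 0 by DESeq2), and 0 in C57BL/6J (0%, with 786, and 6 by DESeq2).

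Fibcd1 had the largest conditioning difference over both strains, a log2 difference of -0.08 (95% interval from -0.18 to 0.03). In C57BL/6J, Pcp4 ran from 85.6 to 139 CPM with FC, with a median of 101 CPM, and from 91.9 to 135 CPM with noFC, with a median of 110.2 CPM. The FC range enclosed the noFC range, and the log2 difference was -0.11 (95% interval from -0.22 to 0.00369, edgeR adjusted p = 1.0). In DBA/2J the same gene had medians of 85.9 CPM with FC and 84.1 CPM with noFC and a log2 difference of 0.03. The difference of these conditioning effects, DBA/2J minus C57BL/6J, was 0.14 for Pcp4 (SE 0.08, edgeR adjusted p = 1.0), and over all genes edgeR called 0 in that contrast (0%, with 725 at an unadjusted p under 0.05, and 0 by DESeq2).

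**Figure D3:**
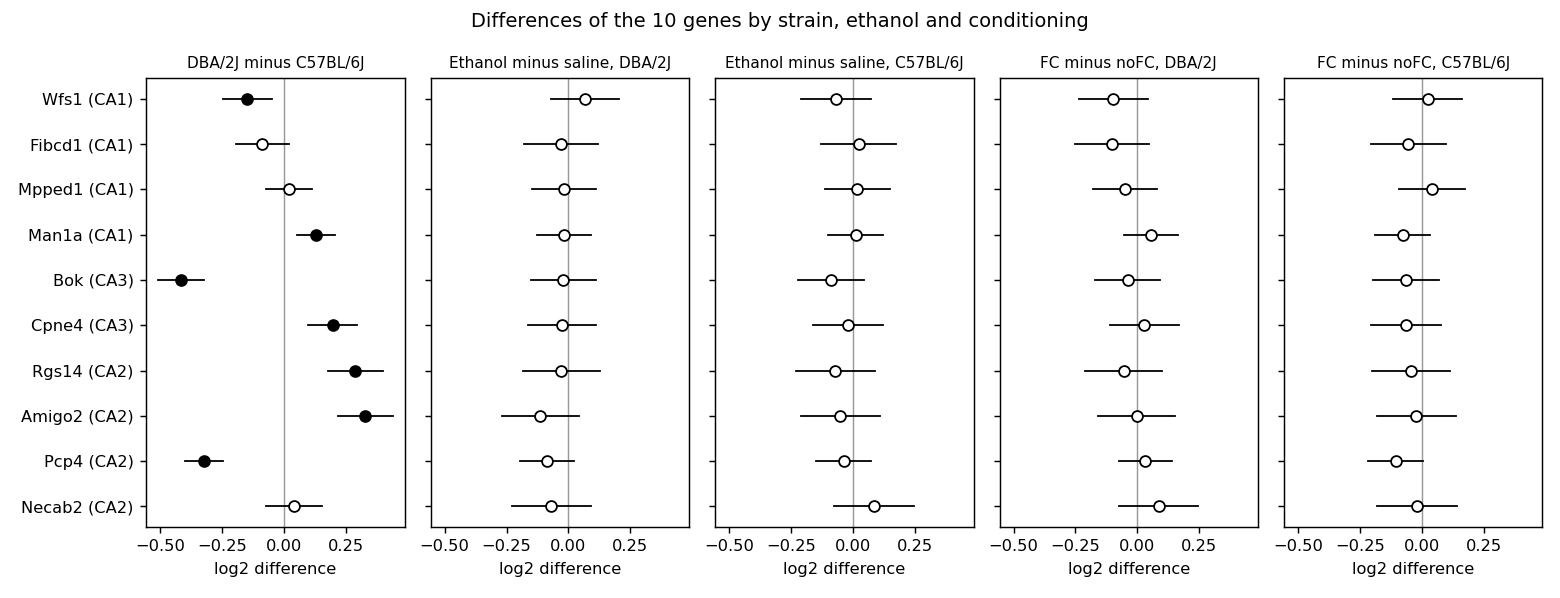
Log2 differences (horizontal axis) of the 10 genes for strain, for ethanol within each strain and for conditioning within each strain; circles are estimates, lines their 95% intervals, and filled circles passed at an adjusted p under 0.05. Filled circles stand only in the strain panel, for 7 genes.

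The remaining contrasts gave the same count. No gene of the 10 was called for sex, male minus female (40 of 19974 genes, 0.200%), where Fibcd1 had the largest difference, -0.09. None was called for the difference of the strain effect between the sexes (0 genes by edgeR, 0%, with 710 at an unadjusted p under 0.05, and 3 by DESeq2) or for the difference of the ethanol effect between FC and noFC (0 genes by edgeR, 0%, with 592, and 0 by DESeq2). In that last contrast 9 of the 10 log2 differences were negative, as for sex, for ethanol in DBA/2J and for conditioning over both strains. Its median was -0.10 for the 10 genes, with a median SE of 0.10, against -0.00645 over all genes. None of the 10 had an edgeR unadjusted p under 0.05 in it. Of the 15 marker lists, no gene passed in any contrast other than strain.

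**Figure D4:**
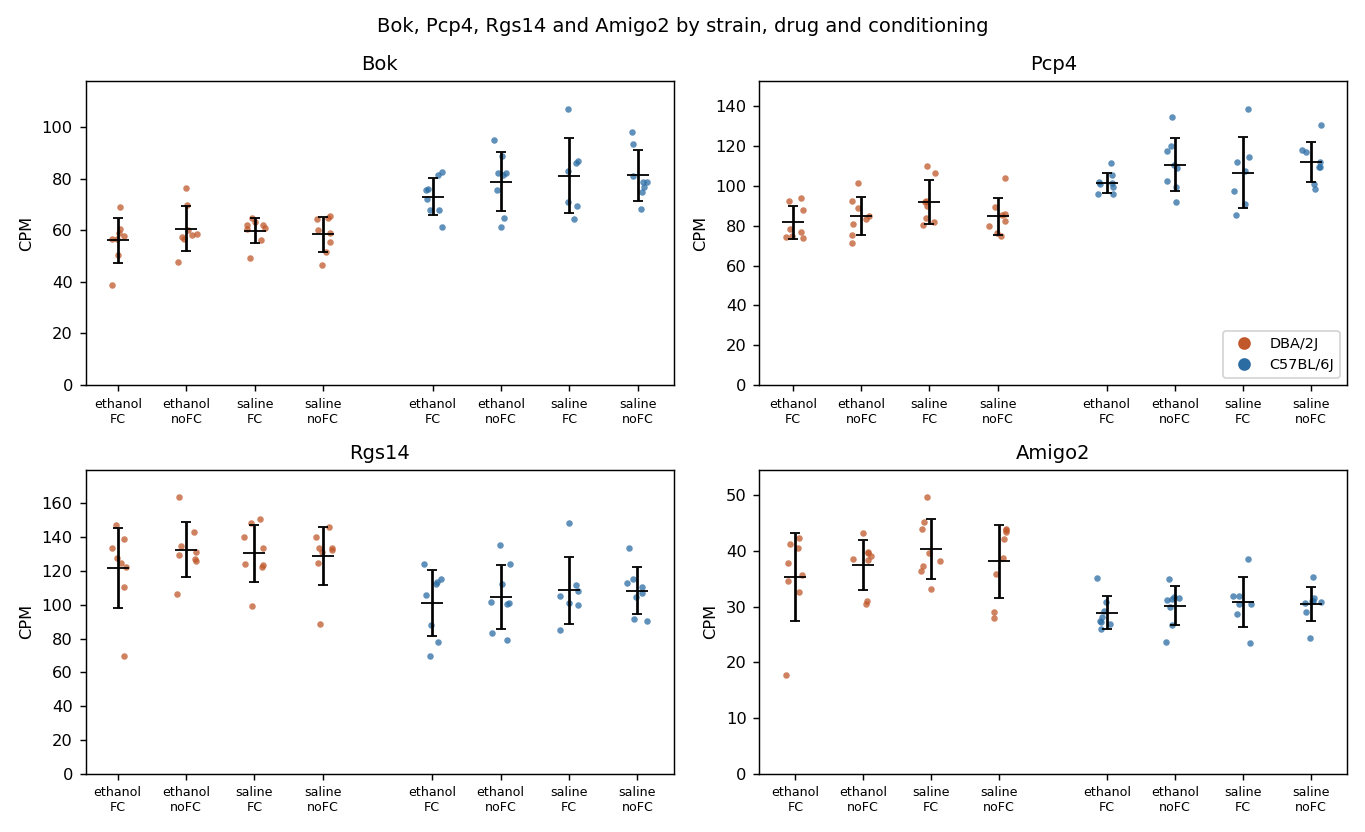
CPM (vertical axes, from 0) of Bok, Pcp4, Rgs14 and Amigo2 by strain, drug and conditioning; points are libraries of both sexes, and bars the mean ± SD of 7 or 8 libraries. Within a strain the drug and conditioning groups overlap, while the strain difference has the same direction in each pair of matching groups.

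The 10 genes did not vary together as one set. Over the 63 libraries, with each group's mean subtracted from log2 CPM, Rgs14 and the CA1 gene Fibcd1 had a Pearson r of 0.82, and Rgs14 had r of 0.77 with Bok, 0.73 with Cpne4, 0.67 with Amigo2 and 0.65 with Wfs1. All pairs among these 6 genes, which belong to 3 fields, had a positive r, the lowest of 0.24 between Amigo2 and Wfs1. Man1a also had a positive r with each of the 6, from 0.10 with Bok to 0.39 with Cpne4. Pcp4 ran against Mpped1 (r = -0.55) and Fibcd1 (r = -0.52), and with Necab2 it had r = 0.38. The median r within a field was 0.25 over the 6 pairs of CA1 genes and -0.03 over the 6 pairs of CA2 genes, and the 1 pair of CA3 genes had r = 0.62. These values describe the libraries: all genes of a library share its dissection and depth.

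Marker lists of excitatory neurons and of other tissue ran with the same axes. The mean of the pan-excitatory list had r of 0.75 with Rgs14, 0.71 with Cpne4 and 0.67 with Fibcd1, and -0.66 with Pcp4. The striatal list had r of 0.69 with both Necab2 and Pcp4, and the thalamic list 0.64 with Pcp4. The neocortical list, which marks the tissue over the hippocampus, had r of -0.76 with Amigo2, -0.64 with Cpne4, -0.63 with Bok and -0.60 with Rgs14. Mpped1 stood apart, with r of 0.82 with the other CA1 genes, -0.75 with the other CA2 genes and -0.65 with the oligodendrocyte list. With the choroid plexus list it had r of -0.60. In each strain that list and the list of other CA2 genes had their highest sums in the same library. The ventral hippocampal list had r of -0.66 with Wfs1, -0.63 with Rgs14 and -0.57 with Fibcd1, against 0.41 with Pcp4 and 0.40 with Necab2. What part adjacent tissue had in these levels was not tested.

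**Figure D5:**
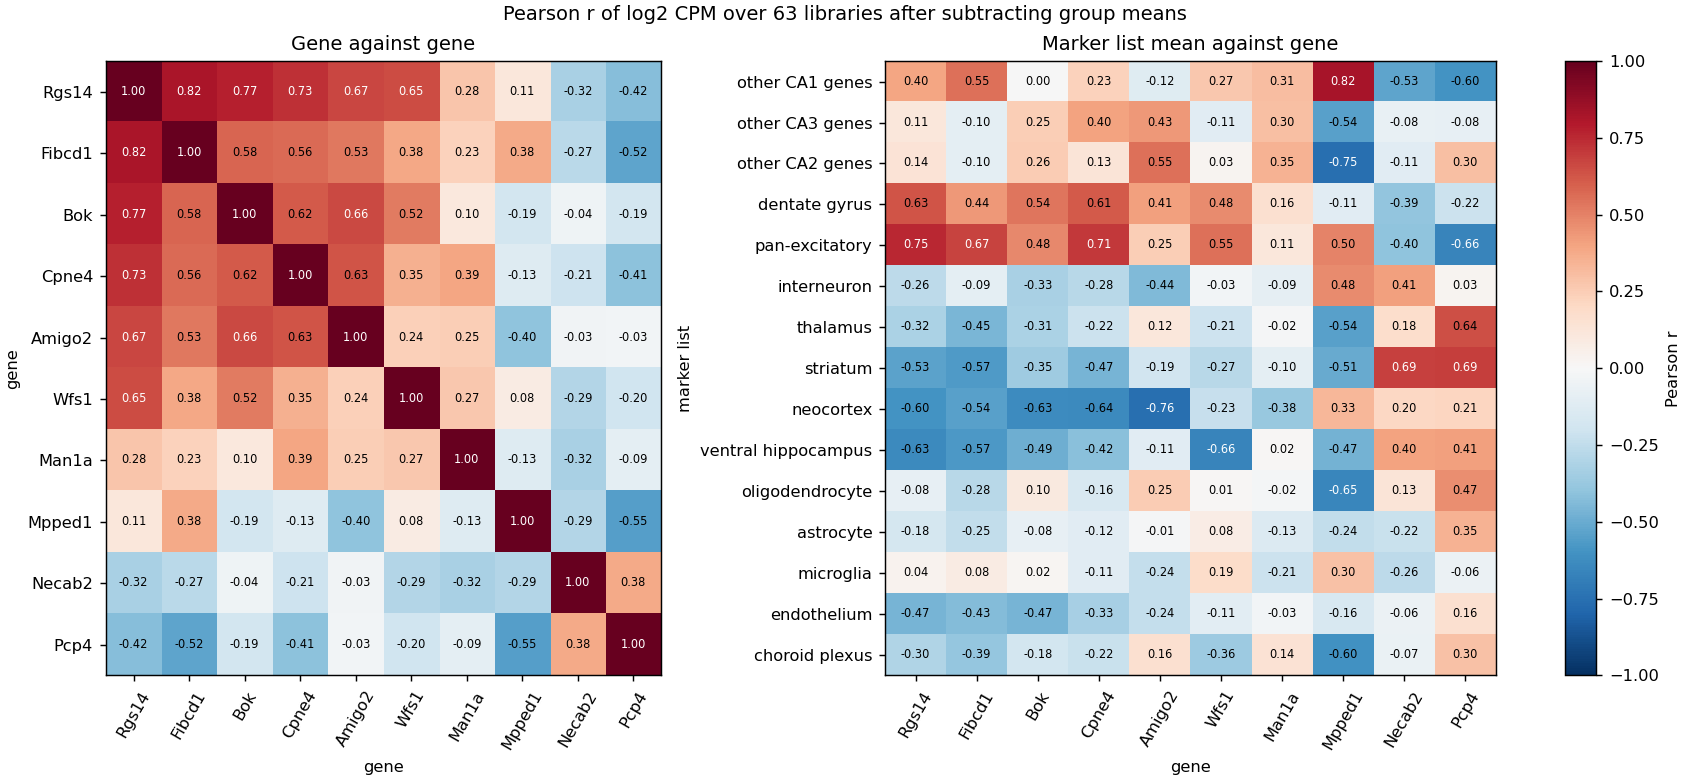
Pearson r over 63 libraries of log2 CPM with group means subtracted, between the 10 genes (left) and between each gene and the mean of each marker list (right); colour and printed values give r. Rgs14, Fibcd1, Bok, Cpne4, Amigo2 and Wfs1 form a positive block, and Man1a has a positive r with each of them. Pcp4 and Necab2 run with the striatal list.

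Single libraries showed this at its widest. Among DBA/2J, 1 library of a male given ethanol and FC was lowest for Fibcd1 (65.8 CPM), Bok (38.6 CPM), Rgs14 (69.6 CPM) and Amigo2 (17.7 CPM). Its neocortical sum of 335 CPM was the highest of all libraries, and its dentate gyrus sum of 318.7 CPM the lowest. Without it the strain log2 difference was 0.35 for Amigo2 and 0.31 for Rgs14. Among C57BL/6J, 1 library of a female given saline and FC was highest for Fibcd1 (179.6 CPM), Bok (107 CPM), Cpne4 (148 CPM), Rgs14 (149 CPM) and Amigo2 (38.6 CPM), and its pan-excitatory sum of 10076 CPM was the highest.

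The genes whose levels were most like each of the 10 were sought among 15837 named genes, by the same within-group r over 63 libraries. Rgs14 was closest to Hpca, the calcium sensor hippocalcin, at 0.94, and Pcp4 to the overlapping Igsf5 at 0.98. Bok was closest to Lrrc10b (0.87), Cpne4 to the transcription factor gene Mef2a (0.89), and Amigo2 to Cotl1 (0.80), with Ccdc3, another CA2 gene, also among the 3 closest at 0.78. Wfs1 was closest to Sec14l1 (0.79), Fibcd1 to the somatostatin receptor gene Sstr4 (0.85), Mpped1 to Zfp365 (0.89) and Man1a to Casc4 (0.79). Necab2 was closest to Hap1 (0.83), and the serotonin receptor gene Htr7 was among its 3 closest at 0.80.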

How the data were processed

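RNA of dorsal hippocampus was measured in 63 libraries made with a stranded poly(A) kit and read from one end, per the labels' protocols. The authors deposited read counts per gene, with a column of gene lengths that served for the levels per kilobase, and estimated counts per transcript. The submitters' processing notes list Salmon, HISAT2, fastp, featureCounts and DESeq2, without versions, and the build GRCm38. Symbols and positions came from GENCODE M21. The 10 genes, the marker lists and the tests were chosen with earlier results of these data known.

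A filterByExpr filter at a minimum count of 10 kept 19974 genes with 99.9% of the counts and left out 35427. Differences were tested with edgeR 4.0.16 in R 4.3.3 (TMM scaling, quasi-likelihood test, 1 coefficient for each of the 16 groups, contrasts with equal weight), two-sided, with p-values adjusted by Benjamini and Hochberg over all genes tested. The 95% intervals follow from the SE. Log2 CPM used a prior count of 2. For transcript usage, rounded estimated counts went through voom and diffSplice of limma 3.58.1 (Simes p per gene). A transcript entered with 10 or more counts in 3 or more libraries and a share of 5% or more of its gene. The fits were tested on simulated data. Named genes are all 10, up to 3 genes of each marker list by p in the strain contrast, the 3 most correlated named genes and the nearest tested protein-coding neighbours. Ccdc3 and Sostdc1 are also given as ends of their list. Alternatives were DESeq2 1.42.0, other scaling, no filter, summed transcript counts, title numbers apart, marker lists as covariates, a replicate block and leaving out each library. The striatal and pan-excitatory covariates were added after seeing the data. A member of the CA1 marker list and a correlated gene are not reported here.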

Additional observations from a re-analysis of the deposited data

Results flagged for a closer look

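In 15 groups of 4 libraries, 150 combinations of gene and group were examined for a library far from the other 3, and 13 were found. Chance gives about 1 in 20. A library of DBA/2J females with noFC and saline was low for 3 genes: Fibcd1 at 94.95 CPM (others 133 to 136), Cpne4 at 74.6 CPM (others 143 to 151) and Rgs14 at 88.9 CPM (others 131 to 133). Its summed level of 6 other CA3 genes, 504 CPM, was the lowest of all libraries. A library of DBA/2J females with noFC and ethanol was high for Bok at 69.6 CPM (others 56.7 to 58.5) and for Necab2 at 80.6 CPM (others 48.0 to 52.7). Amigo2 was low in another DBA/2J female noFC ethanol library at 30.9 CPM and in a C57BL/6J female noFC saline library at 24.3 CPM. It was high in a DBA/2J male FC saline library at 49.6 CPM and in a C57BL/6J male FC ethanol library at 35.2 CPM. Mpped1 was high in a DBA/2J male noFC saline library at 247 CPM (others 158 to 172) and in a C57BL/6J female FC ethanol library at 182 CPM, and low in a C57BL/6J male noFC saline library at 137 CPM. Wfs1 was low in another C57BL/6J male FC ethanol library at 128 CPM (others 195 to 203). Without the DBA/2J library that was low for Cpne4, the strain log2 difference of Cpne4 was 0.22.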

How the results depend on the processing

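Outside the strain comparison, no value of the 10 genes was called in any of 6860 member values over all alternatives and left-out libraries, and the lowest adjusted p among them was 0.188. For strain, 7 genes were called with all libraries, 7 in each of 63 fits without 1 library, 6 with the lower title numbers alone (Wfs1 lost), 6 with the higher alone (Man1a lost) and 8 with the pan-excitatory covariate (Fibcd1 gained). For transcript usage, 2 of the 10 were called with all libraries and without any 1 library, 4 with no minimum share and 1 with the lower title numbers alone, where Amigo2 had an adjusted p of 0.0518. At a minimum share of 10% Necab2 had no value. The title number was not taken to pair libraries, because 32 of 93 same-numbered pairs, not all, had an r over 0.1 (median 0.04). Among 279 pairs of other numbers within a strain and sex, the median r was -0.0097. Paired libraries need not all pass such a rule, so it cannot exclude pairing. That 27 of 63 libraries correlated best with their own number is a hint of pairing from the data, not the design. How many would do so by chance was not computed. With the title number as a replicate block, 0 of the 10 were called. The genes called then numbered 155 for ethanol over both strains, 109 in DBA/2J and 4 for the difference between strains. The block could not be fitted for strain, sex or their interaction, because each number belongs to 1 strain and sex. Counts over all genes moved by more than 1.5 times as follows. DESeq2 called 107 for ethanol in DBA/2J, 6 for its difference between strains, 8 for conditioning over both, 6 for conditioning in C57BL/6J and 3 for strain by sex. With no filter, ethanol gave 66 over both strains and 33 in DBA/2J. Summed transcript counts gave 25 for sex and 1 for strain by sex. The lower title numbers gave 17 for sex, 11 for ethanol over both, 0 in C57BL/6J, 0 for its difference, 0 for conditioning and 1548 for usage, and the higher gave 23, 34, 1, 0 and 0, with 15 for ethanol in DBA/2J. The covariates gave 62 for sex (thalamus), 3 for strain by sex (thalamus), 7 for conditioning (choroid plexus), 2 (choroid plexus), 3 (thalamus) and 2 (striatum) for conditioning in C57BL/6J, and 104 (striatum) and 95 (pan-excitatory) for ethanol in DBA/2J. Leaving out 1 library gave 0 to 5 for the difference of the ethanol effect between strains (5 without a DBA/2J female given saline and noFC, 0 without a C57BL/6J female given ethanol and FC), 0 to 4 for conditioning in C57BL/6J (4 without a male given ethanol and FC) and 0 to 2 for strain by sex (2 without a DBA/2J male given saline and FC). The causes were not tested.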
